A study of Mus musculus with 8 samples.

Results

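Fpr1 and Fpr2, the receptors by which phagocytes sense formylated peptides, and 8 genes of neutrophil granules and of neutrophil calcium-binding proteins (S100a8, S100a9, Ltf, Camp, Ngp, Lcn2, Mmp8 and Mmp9) were followed over 8 arrays. The 10 genes were a set list, chosen with earlier results of these data known. Their probes were the gene probes of the array that name one of their transcripts. All 10 had a probe, and 9 entered the tests among 20740 features, of which 14490 were named genes. Ngp did not enter, since its probe was well above background on 1 array of each genotype only. Camp had 2 probes and the other genes 1 each.

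The samples were macrophages of mice given LPS, the endotoxin of Gram-negative bacteria, and the series title ties EP2 to macrophage activity in heart repair. A group of 4 arrays came from wild-type mice (WT 1 to WT 4) and another of 4 from mice labelled EP2-KO (EP2KO 1 to EP2KO 4), which lack EP2; this receptor of prostaglandin E2 is the product of Ptger2. All mice were labelled male, and the labels give no age, strain, LPS dose, time after LPS, tissue of origin or kind of knockout allele. The labels do not say whether an array stands for 1 mouse or a pool, so the p-values below measure the spread between these arrays.

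Formyl peptide receptors are G protein-coupled receptors that recognise peptides released by bacteria and by damaged mitochondria and steer phagocytes toward them. Neutrophils make their granule proteins in sequence while they mature in the bone marrow: primary granule proteases first, then the secondary granule proteins lactoferrin (Ltf), cathelicidin (Camp) and neutrophilic granule protein (Ngp), then gelatinase (Mmp9). S100a8 and S100a9 form calprotectin, the main cytosolic protein of neutrophils. Activated macrophages and monocytes can also make Fpr1, Fpr2, S100a8, S100a9, Lcn2 and Mmp9 transcripts, so these genes are not exclusive to neutrophils.

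Promoter windows of 5 of the genes are shown because their array patterns carry the results below. Fpr1 and Fpr2 stand first because they had the largest differences, and Camp and Ngp because both were brightest on 1 and the same array. Mmp8 was added because it was called in the direction opposite to the other called genes. Each window holds the 250 bases before the gene's start, 5′ to 3′ on the gene's strand, from RefSeq (assembly GRCm38.p6). Capitals mark matches on either strand to a C/EBP motif (TTNNGNAA) and to the TATA box sequence (TATAAA), wherever in the window they lie. C/EBP proteins are the transcription factors that drive granule genes in maturing neutrophils.
Fpr1, chr17:17883940-17884189, minus strand: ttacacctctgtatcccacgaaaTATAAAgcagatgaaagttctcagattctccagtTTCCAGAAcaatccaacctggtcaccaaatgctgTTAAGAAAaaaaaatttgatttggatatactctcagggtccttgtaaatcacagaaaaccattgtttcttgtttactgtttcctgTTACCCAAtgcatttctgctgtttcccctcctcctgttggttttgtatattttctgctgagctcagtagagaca
Fpr2, chr17:17887574-17887823, plus strand: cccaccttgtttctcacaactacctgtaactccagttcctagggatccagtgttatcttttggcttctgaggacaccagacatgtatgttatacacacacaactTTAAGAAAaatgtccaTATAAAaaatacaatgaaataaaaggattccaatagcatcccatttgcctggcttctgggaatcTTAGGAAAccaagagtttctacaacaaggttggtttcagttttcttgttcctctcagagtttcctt
Camp, chr9:109849457-109849706, minus strand: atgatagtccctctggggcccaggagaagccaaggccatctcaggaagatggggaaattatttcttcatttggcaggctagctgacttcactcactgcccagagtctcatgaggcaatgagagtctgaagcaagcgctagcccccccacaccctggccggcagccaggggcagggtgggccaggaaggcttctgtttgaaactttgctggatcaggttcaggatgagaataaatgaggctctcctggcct
Ngp, chr9:110419558-110419807, plus strand: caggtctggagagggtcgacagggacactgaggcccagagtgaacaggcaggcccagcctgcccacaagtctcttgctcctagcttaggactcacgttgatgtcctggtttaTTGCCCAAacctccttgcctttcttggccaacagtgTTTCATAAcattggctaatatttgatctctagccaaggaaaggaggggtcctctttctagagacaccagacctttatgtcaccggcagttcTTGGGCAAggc
Mmp8, chr9:7558179-7558428, plus strand: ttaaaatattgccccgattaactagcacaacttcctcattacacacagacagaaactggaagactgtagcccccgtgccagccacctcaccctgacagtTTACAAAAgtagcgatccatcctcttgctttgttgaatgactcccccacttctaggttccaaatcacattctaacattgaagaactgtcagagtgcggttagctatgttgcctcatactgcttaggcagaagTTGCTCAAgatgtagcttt

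Windows were found for 9 of the 10 genes, all but Mmp9. The C/EBP motif was present in 8 of these 9 windows and in 36.8% of all 32851 windows of the same length. Fpr1 and Ngp had 3 matches each, Fpr2 and Mmp8 had 2 each, and Camp had none of the motifs searched. The TATA box sequence was in 3 of 9 windows (12.4% of all), those of Fpr1, Fpr2 and S100a8. It began 227 bases before the start in Fpr1, 130 in Fpr2 and 30 in S100a8. A PU.1 motif, GAGGAA, was in 5 of 9 (23.3% of all) and an NF-kB motif, GGGNNNTCC, in 2 of 9 (15.2% of all), S100a8 and Lcn2. Matches to different motifs overlapped 0 times in these windows, and a match describes letters only. In the same gene table Fpr1 and Fpr2 are direct neighbours on chromosome 17 that are read away from each other, with starts 3885 bases apart. S100a8 and S100a9 are direct neighbours on chromosome 3. Camp, Ngp and Ltf lie in that order on chromosome 9, with 8 protein-coding genes between the first pair and 20 between the second.

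Signals are given after each array was scaled to a 75th percentile of 1000, and differences are on the log2 scale. Before this scaling the 75th percentile ran from 986.9 (WT 2) to 1508 (WT 3), and 0 spots were saturated. The arrays sat on 2 slides scanned on different days: slide 1 held replicates 1 and 2 of both genotypes and slide 2 held replicates 3 and 4, so slide, scan day and replicate number cannot be told apart. WT arrays lay at positions 1 and 2 of each slide and EP2KO arrays at 3 and 4, and these, too, cannot be told apart from the genotype. Ptger2 was at 972, 1120, 899 and 1000 on WT 1 to 4 and at 357, 287, 323 and 224 on EP2KO 1 to 4, lower on each EP2KO array than on any WT array (-1.76 ± 0.17 SE; limma adjusted p = 0.0616, and 0.0328 with the slide as a block). The labels do not say whether its probe lies within the deleted part. Both probes of Xist, which coats the inactive X of female cells, exceeded background on 8 of 8 arrays. The Y-linked Ddx3y, Eif2s3y and Kdm5d did so on 0, and Uty on 1 array with 1 of its 2 probes. Both readings go against the labelled sex. All 9 macrophage markers with a named probe were well above background on 8 of 8 arrays (Cd68 had no named probe).

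Fpr1 was 58.5-fold lower on slide 2 than on slide 1, and Fpr2 was 38.4-fold lower. These were the 8th and 21st largest differences in size of 20740 features. Between genotypes both receptors were lower in EP2KO on each slide, by amounts that did not pass the test over all features. Fpr1 had scaled signals of 16690 and 26030 on WT 1 and 2 and of 12280 and 10600 on EP2KO 1 and 2. On slide 2 it was at 768.5 and 356.1 on WT 3 and 4 and at 127.3 and 138.4 on EP2KO 3 and 4. Every slide 1 array was above every slide 2 array, as for 18% of all features. On each slide both WT arrays were above both EP2KO arrays, as for 33.9% of all features on slide 1 and 21.4% on slide 2. The 4 groups of 2 arrays thus kept 1 order with no overlap between neighbours. The share of all features with that whole order was not counted. The slide difference was -5.87 ± 0.33 (SE, n = 4 arrays a slide; limma adjusted p = 6.78e-05). In WT arrays alone it was -5.32 ± 0.46 and in EP2KO arrays alone -6.43 ± 0.13.

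Fpr2, the receptor that also binds serum amyloid A and annexin A1, gave nearly the same picture. Its signals were 7856, 14360, 6435 and 5644 on slide 1 (WT 1, WT 2, EP2KO 1 and EP2KO 2). They were 442.2, 301.7, 121.6 and 116.2 on slide 2 (WT 3, WT 4, EP2KO 3 and EP2KO 4). Again the slides did not overlap, and the 4 groups of 2 arrays kept the order seen for Fpr1. The slide difference was -5.26 ± 0.26 (limma adjusted p = 5.13e-05), with -4.86 ± 0.38 in WT arrays and -5.66 ± 0.12 in EP2KO arrays.

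**Figure D1:**
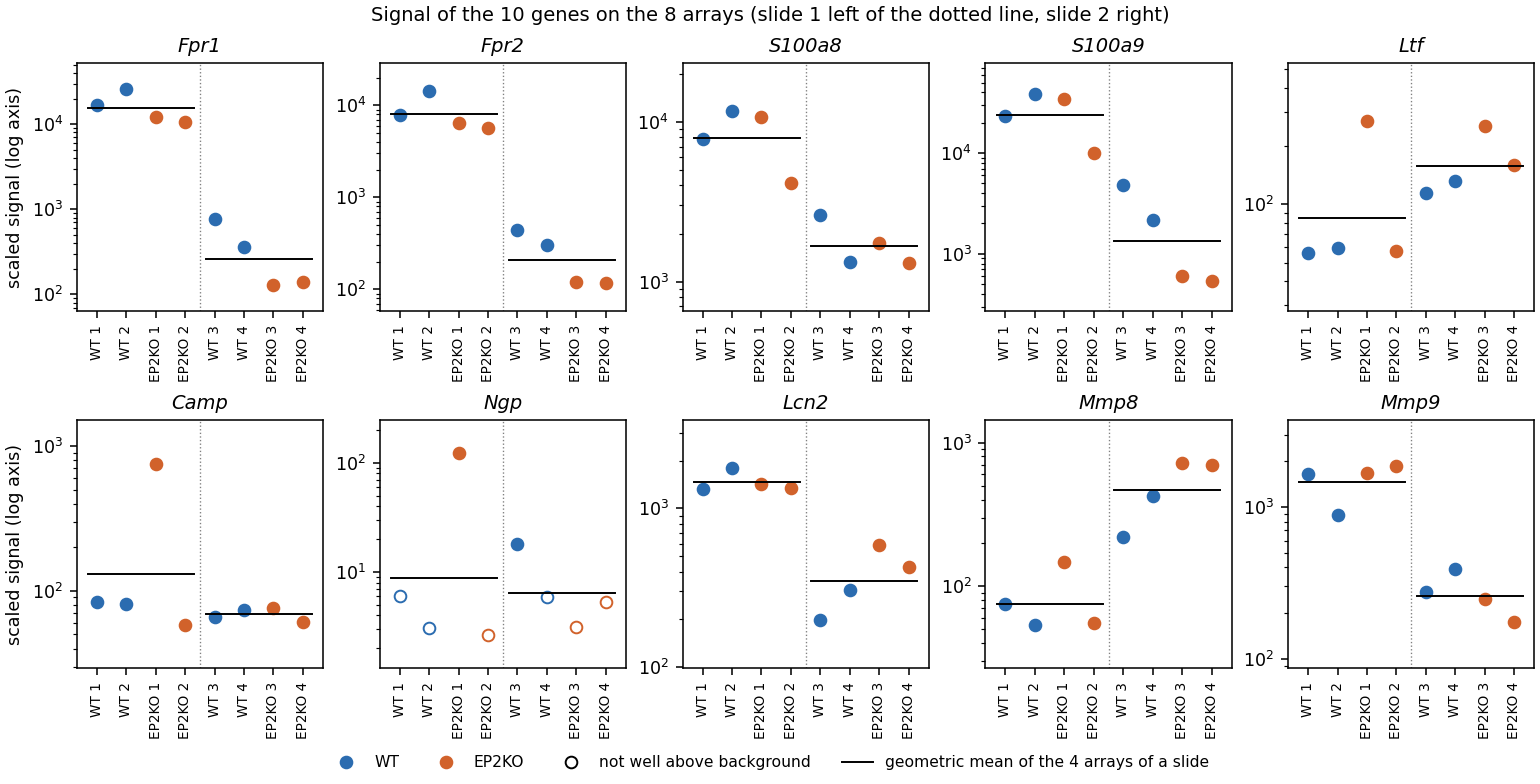
Scaled signal (log axis, one range per panel) of each of the 10 genes on the 8 arrays, WT in blue and EP2KO in orange, slide 1 left and slide 2 right of the dotted line. Open circles are arrays on which the probe was not well above background, and lines are geometric means of the 4 arrays of a slide. Fpr1 and Fpr2 lie far lower on slide 2, Mmp8 lies higher there, and Camp and Ngp are highest on EP2KO 1.

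The calprotectin genes S100a9 and S100a8 were both lower on slide 2, S100a9 by the larger amount. S100a9 was at 23340, 38930, 34730 and 9982 on WT 1, WT 2, EP2KO 1 and EP2KO 2. On WT 3, WT 4, EP2KO 3 and EP2KO 4 it was at 4803, 2161, 599.5 and 540.6. The slides did not overlap, and on slide 2 both EP2KO arrays were below both WT arrays, while on slide 1 the genotypes overlapped. The difference between slides was -4.13 ± 0.55, or 17.5-fold (limma adjusted p = 0.00127). It was 9.36-fold in WT arrays alone, 32.7-fold in EP2KO arrays alone and 30.7-fold with array weights. S100a8 was at 7782, 11660, 10680 and 4132 on the arrays of slide 1 in the same order and at 2618, 1330, 1747 and 1308 on those of slide 2. It differed between slides by -2.24 ± 0.35, or 4.74-fold (limma adjusted p = 0.00259), and its genotypes overlapped on both slides. So the 2 subunit genes, which are direct neighbours, differed between slides by unlike amounts. The test of that inequality was not run, since it sets a probe against another probe.

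Among the genes of secondary granules, Lcn2 was lower on slide 2, while Ltf and Camp did not pass the test and Ngp was mostly at background. Lcn2 encodes lipocalin 2, which withholds iron from bacteria by binding their siderophores. It was at 1330, 1799, 1421 and 1340 on slide 1 (WT 1, WT 2, EP2KO 1 and EP2KO 2) and at 196.5, 305.9, 585.2 and 428.6 on slide 2 (WT 3, WT 4, EP2KO 3 and EP2KO 4). The slides did not overlap, and the difference was -2.06 ± 0.29, or 4.17-fold (limma adjusted p = 0.00163), with 6.31-fold in WT arrays alone and 2.76-fold in EP2KO arrays alone. On slide 2 both EP2KO arrays were above both WT arrays, as for Ltf, Mmp8 and 29.4% of all features. Of the tested members Fpr1, Fpr2, S100a9 and Mmp9 had the opposite order there, as did 21.4% of all features.

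Ltf encodes lactoferrin, the iron-binding protein of secondary granules. Its signals were 56.13, 59.42, 267.5 and 57.43 on slide 1 and 113.8, 132.2, 254.2 and 159.8 on slide 2, in the same order of arrays. The other 3 slide 1 arrays, WT 1, WT 2 and EP2KO 2, were below all slide 2 arrays and EP2KO 1 was above every slide 2 array. With all arrays the difference was 0.89 ± 0.45 (limma adjusted p = 0.149). Without EP2KO 1 it was 1.38 ± 0.23 (limma adjusted p = 0.00802), and in WT arrays alone 1.09 ± 0.18 (adjusted p = 0.0339), so EP2KO 1 decided whether Ltf passed.

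Camp encodes the precursor of the antimicrobial cathelicidin peptide. It was at 83.92, 81.49, 751.3 and 58.54 on slide 1 and at 66.31, 73.50, 76.12 and 60.95 on slide 2. The other 7 arrays lay between 58.54 and 83.92, and EP2KO 1 stood 8.94-fold above the next. The second Camp probe showed the same single high array, with 380.1 on EP2KO 1 against at most 52.97 elsewhere. The slide difference was -0.93 ± 0.74 (limma adjusted p = 0.344) with EP2KO 1 and -0.06 ± 0.16 (adjusted p = 0.802) without it.

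Ngp, whose product is a cathelicidin relative stored in the same granules, was well above background on EP2KO 1 (122.6) and WT 3 (18.09). On the other 6 arrays its signal was not well above background, at 2.633 to 6.021. It was not tested, and no fold between slides or genotypes is given for it.

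The collagen-cleaving enzymes of the granules went opposite ways. Mmp9, gelatinase B of the tertiary granules, was at 1655, 891.5, 1662 and 1862 on WT 1, WT 2, EP2KO 1 and EP2KO 2. On WT 3, WT 4, EP2KO 3 and EP2KO 4 it was at 273.8, 388.2, 247.9 and 173.3. The slides did not overlap, and the difference was -2.49 ± 0.32, or 5.62-fold lower on slide 2 (limma adjusted p = 0.00112), with 3.73-fold in WT arrays alone and 8.49-fold in EP2KO arrays alone. Mmp8, neutrophil collagenase of the secondary granules, was at 74.88, 53.59, 146.5 and 55.04 on slide 1 and at 220.3, 427.5, 715.0 and 701.0 on slide 2. It was the member called higher on slide 2, by 2.63 ± 0.37, or 6.18-fold (limma adjusted p = 0.00154), with 2.28 ± 0.40 in WT arrays and 2.98 ± 0.51 in EP2KO arrays.

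Between slides, then, 7 of the 9 tested members passed an adjusted p of 0.05, against 43.2% of all features. On slide 2, 6 were lower, against 18.2% of all features, and 1 was higher, against 25.1%. The median difference of the 9 members was -2.24, while over all features the median was 0.06 and the median size 0.42. Because the members were chosen with earlier results of these data known, these contrasts with all features describe the members only. The same count of 7 held in EP2KO arrays alone, and WT arrays alone called 8, with Ltf added. For the 7 called members the slides did not overlap, as was so for 43.1% of all features. Since slide and replicate number coincide, the measurement does not separate the slides from the animals or cell preparations on them. In RNA of a whole cell preparation, fewer cells of a type and less RNA per cell cannot be told apart.

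**Figure D2:**
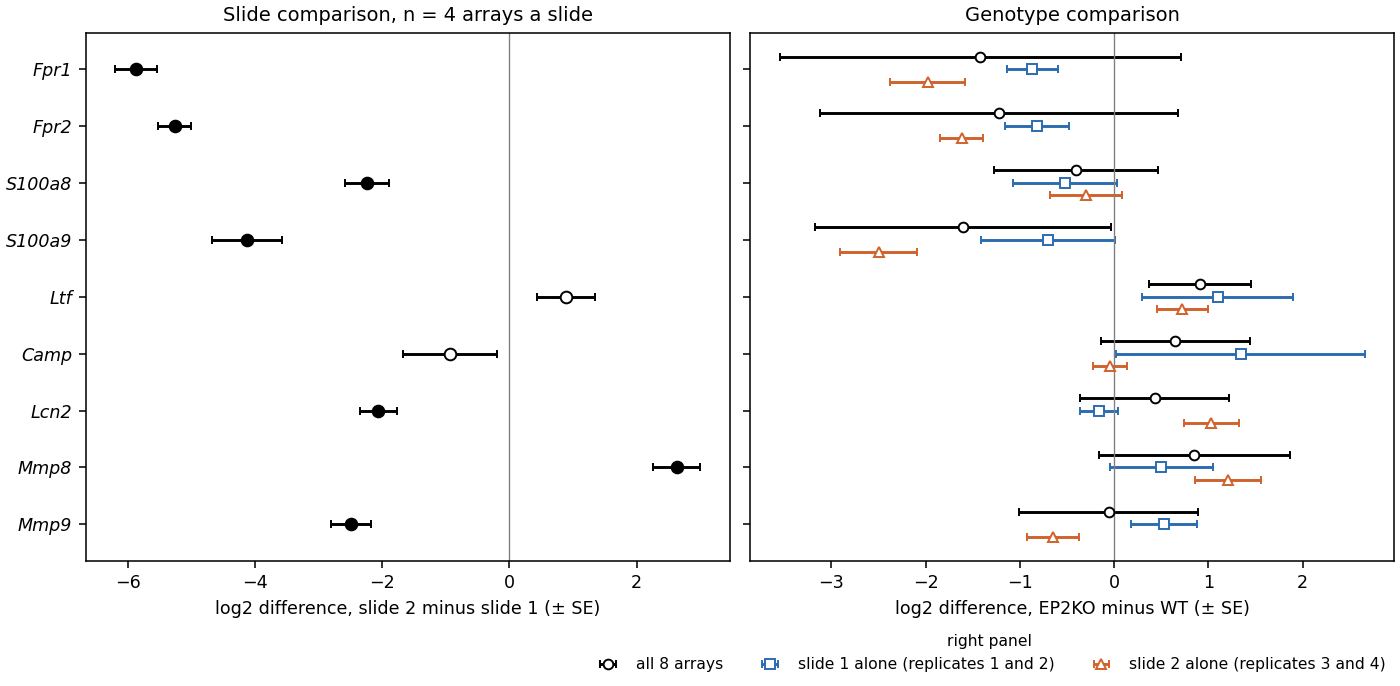
Left, log2 difference of slide 2 minus slide 1 for 9 genes with the limma SE, filled where the adjusted p was under 0.05 (4 arrays a slide). Right, EP2KO minus WT with SE over all 8 arrays and on each slide alone (2 arrays a genotype), none of which passed. Fpr1 and Fpr2 stand at -5.87 and -5.26 on the left, and their genotype differences lie below 0 on both slides.

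Between genotypes, 0 of the 9 tested members passed, with the slide left out of the model or in it. Over all features the calls were 0.00964% without a slide term and 0.0193% with the slide as a block. At an unadjusted p under 0.05 there were 0 members without a slide term, and with the slide as a block there were 3: Fpr1, Fpr2 and S100a9. Among all features 1.98% had such a p without a slide term and 7.34% with the slide as a block.

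Fpr1 differed between genotypes by -1.42 ± 2.13 (adjusted p = 1), an SE that carries the slide difference. With the slide as a block the SE was 0.33 and the limma adjusted p 0.273. Its difference was -0.87 ± 0.27 on slide 1 and -1.98 ± 0.40 on slide 2. Fpr2 differed by -1.22 ± 1.90, with an SE of 0.26 and a limma adjusted p of 0.237 once the slide was a block, and by -0.82 ± 0.34 on slide 1 and -1.62 ± 0.23 on slide 2. Both receptors thus had both EP2KO arrays below both WT arrays on each slide, a separation seen in that direction for 33.9% of all features on slide 1 and 21.4% on slide 2. Over all 8 arrays both overlapped between genotypes.

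S100a9 differed between genotypes by -1.60 ± 1.57 (slide as a block: SE 0.55, limma adjusted p = 0.546), with -0.70 ± 0.71 on slide 1 and -2.50 ± 0.41 on slide 2. S100a8 had -0.41 ± 0.87, with -0.52 ± 0.55 and -0.30 ± 0.38 on the slides. Both were below 0 on each slide, and neither separated the genotypes on slide 1. Mmp8 had 0.85 ± 1.01, with 0.50 ± 0.55 on slide 1 and 1.21 ± 0.35 on slide 2, and Ltf had 0.91 ± 0.54, with 1.1 ± 0.80 and 0.72 ± 0.27. Both were above 0 on each slide, and neither passed the test. Camp had 0.65 ± 0.79 with EP2KO 1 and -0.23 ± 0.17 without it, so its sign rested on that array.

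Lcn2 and Mmp9 had genotype differences of opposite sign on the slides. For Mmp9 both EP2KO arrays were above both WT arrays on slide 1, as for 15.6% of all features. On slide 2 they were below both, as for 21.4% of all features. Lcn2 was at -0.16 ± 0.20 on slide 1 and 1.03 ± 0.29 on slide 2 (0.43 ± 0.79 over all arrays), and Mmp9 at 0.53 ± 0.35 and -0.65 ± 0.28 (-0.06 ± 0.95). Whether the genotype difference itself differed between slides was tested as an interaction, and 0 of 9 members passed, against 0.0145% of all features. The interaction was 1.19 ± 0.39 for Lcn2 (limma adjusted p = 0.172) and -1.19 ± 0.49 for Mmp9 (limma adjusted p = 0.235), the 2 members with an unadjusted p under 0.05, which 21.1% of all features had. For Fpr1 it was -1.11 ± 0.54 (limma adjusted p = 0.294).

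The likeness of 2 genes was measured as the root mean square (RMS) difference between their log2 profiles over the 8 arrays, each centred on its own mean. It is a description over arrays that fall into slides, and it carries no p. Fpr1 and Fpr2 were 0.37 apart. Of all 20709 features without a missing value, Fpr2 was the nearest to Fpr1, and Fpr1 was the second nearest to Fpr2. S100a9 was 0.98 from Fpr1 and 0.78 from Fpr2. S100a8, Lcn2 and Mmp9 lay 0.72 to 0.77 from each other, but ranked only 794th to 1064th nearest to each other among all features. S100a9 was 1.23 from S100a8, its partner in calprotectin. It ranked 8764th nearest to S100a8, and S100a8 ranked 363rd nearest to S100a9. Among the members Mmp8 was nearest to Ltf (0.97), which ranked 1302nd over all features. Mmp8 lay 4.47 from Fpr1, the largest distance among these genes.

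**Figure D3:**
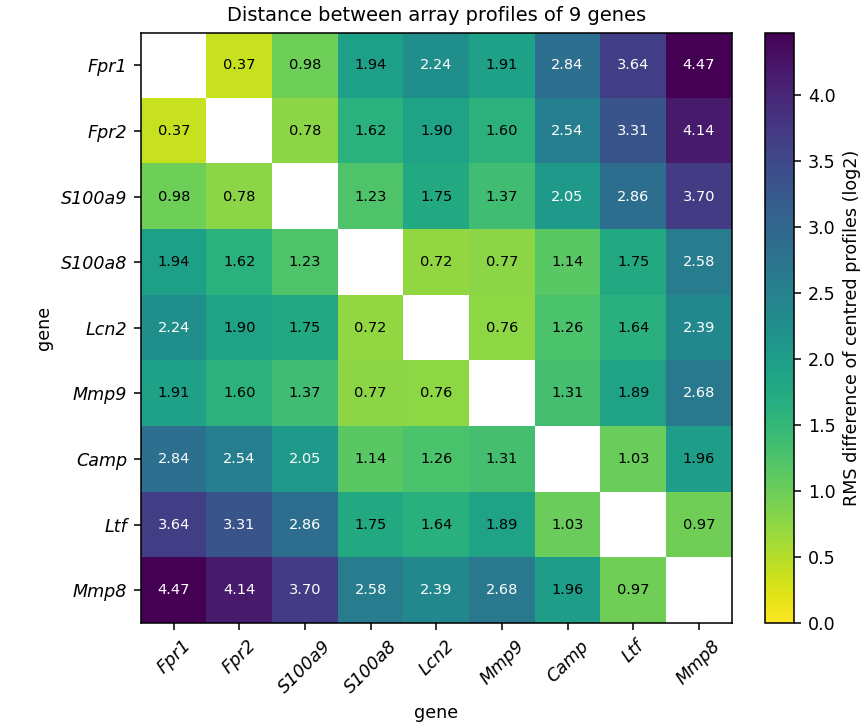
RMS difference (log2) between the centred profiles of each pair of 9 genes over the 8 arrays, with yellow for near and dark for far. Fpr1 and Fpr2 are 0.37 apart, and S100a8, Lcn2 and Mmp9 lie 0.72 to 0.77 from each other. Mmp8 is farthest from the receptors at 4.47 and 4.14.

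The nearest named genes outside the 10 were taken over 14473 named genes. Serpinb10, which encodes a serine protease inhibitor, was nearest to both receptors, at 0.24 from Fpr2 and 0.44 from Fpr1, and it was lower on slide 2, at -5.31 (limma adjusted p = 7.92e-05). Next came Hp, haptoglobin, at 0.49 from Fpr2, and Acod1, the enzyme that makes itaconate in activated macrophages, at 0.80 from Fpr1. S100a8 was followed by Mrgpra2b (0.24) and Mrgpra2a (0.26), near-identical copies whose probes may share targets. S100a9 was followed by the stefin gene Stfa2l1 (0.46) and Scrg1 (0.55). Lcn2 was followed by Cyp2ab1 (0.24) and Slpi (0.27), the antiprotease of secretions and secondary granules. Mmp9 was followed by Cyp26b1 (0.20), which degrades retinoic acid, and G0s2 (0.22), an inhibitor of lipolysis. Mmp8 was followed by Mrgpre (0.40) and Cpeb4 (0.44), and Ltf by Ddx4 (0.48) and Zfp423 (0.49). Camp had no close gene: Tatdn1 was at 0.72 and Mpo, the myeloperoxidase of primary granules, at 0.77.

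Other genes of the same pathways also differed between slides, and in every group listed here 0 members passed between genotypes, with or without a slide term. Their slide counts are to be read against the 18.2% of all features called lower and the 25.1% called higher, and for partners of granule proteins and for other matrix metalloproteinases the share called higher was near the latter. These slide calls depended on the background correction more than those of the members did: with normexp, the calls were lost for Fpr-rs6 (-1.37, limma adjusted p = 0.0759), Saa2 (-0.78, 0.339), Gfi1 (-1.01, 0.137), Cxcl2 (-0.65, 0.157), Mmp25 (-0.60, 0.494), S100a5 (-1.30, 0.0776) and S100a1 (0.63, 0.051). Of the other formyl peptide receptors, 2 of 5 were tested. Fpr-rs6 was lower on slide 2, at -3.27 ± 0.21 (limma adjusted p = 0.000101) and Fpr3 was at 0.19 ± 0.17. The copies of this family resemble each other in sequence, and cross-hybridisation between their probes was not tested. Fpr-rs3, which did not pass the filter, was at 45.82, 76.85, 40.08 and 33.45 on slide 1 and at 1.888 to 5.849 on slide 2.

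Of 8 tested primary granule genes, 4 were lower and 1 higher on slide 2. Its serine proteases differed in both directions. Prtn3, proteinase 3, was lower, at -4.28 ± 0.39 (limma adjusted p = 0.000298) and Ctsg, cathepsin G, at -3.39 ± 0.23 (adjusted p = 0.000117). Elane, neutrophil elastase, was higher by 1.36 ± 0.17 (adjusted p = 0.00108), with 542.9 to 625.1 on slide 1 and 1209 to 1949 on slide 2. Mpo stood at -0.55 ± 0.77 (adjusted p = 0.593), with its highest signal, 376.3, on EP2KO 1.

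Of 20 tested genes of secondary and tertiary granules outside the 10, 12 were lower and 4 higher on slide 2, with a median of -1.89. In WT arrays alone 6 were lower and 3 higher, and with normexp 7 and 3, with a median of -0.49. Lower were Hp (-4.52 ± 0.22), Stfa2l1 (-3.89 ± 0.31), Stfa3 (-3.36 ± 0.71) and Pglyrp1, a peptidoglycan-binding antimicrobial protein (-3.36 ± 0.42). In WT arrays alone Stfa3 (-3.36, limma adjusted p = 0.145) and Pglyrp1 (-2.94, adjusted p = 0.0615) were not called. The 4 higher ones, named after their values were seen, were Qpct (2.69), the metalloprotease gene Adam8 (1.76), Bpifc (1.44) and Slc11a1 (0.48). The profiles of these genes show that granule genes differed between slides in both directions, as the members did.

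**Figure D4:**
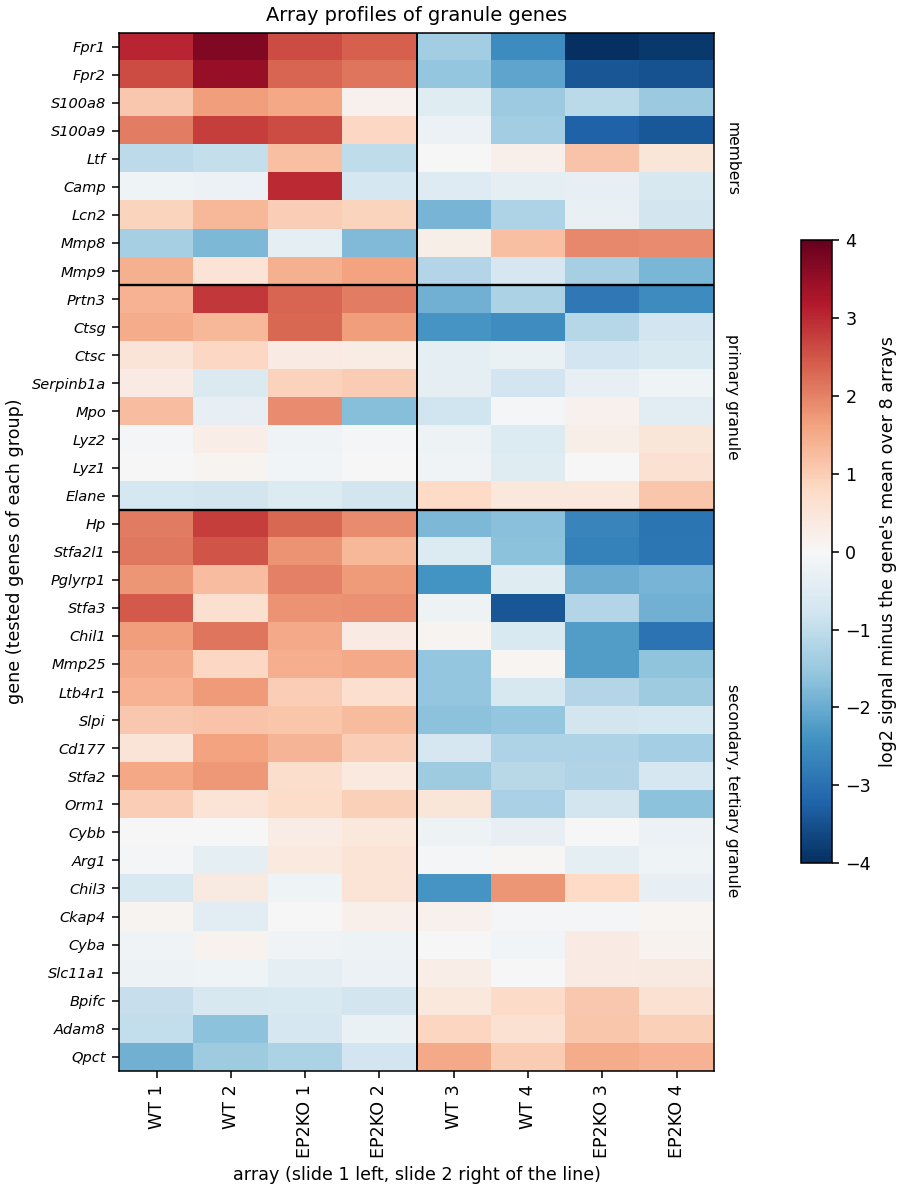
Log2 signal minus each gene's mean over the 8 arrays for 9 of the 10 genes, 8 primary granule genes and 20 secondary and tertiary granule genes, in red where above and blue where below the gene's mean. Most rows are red on slide 1 and blue on slide 2, Mmp8, Elane, Bpifc, Adam8 and Qpct are the reverse, and Camp is red on EP2KO 1.

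Of 18 tested receptors and identity genes of neutrophils, 10 were lower and 2 higher on slide 2. The higher ones, named after their values were seen, were Cxcr1 (2.1 ± 0.38, limma adjusted p = 0.00475) and C5ar1 (0.9 ± 0.12, adjusted p = 0.00142). Clec4e, a sensor of mycobacterial glycolipids, was lower, at -2.94 ± 0.18 (limma adjusted p = 9.43e-05). The cytokine gene Il1b was lower, at -2.80 ± 0.26 (adjusted p = 0.000319). Of 16 ligands and signalling genes of the receptors, 6 were lower and 1 higher. The serum amyloid genes Saa2 (-3 ± 0.54), Saa3 (-1.46 ± 0.29) and Saa1 (-1.20 ± 0.23), whose products bind Fpr2, were lower together with the receptor. Anxa1, the source of an anti-inflammatory Fpr2 ligand and named after its value was seen, was the higher one (0.82, adjusted p = 0.00186).

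Of 14 transcription factors of granulocytes, 7 were lower and 1 higher on slide 2, and with normexp 4 and 1. Cebpe, which drives secondary granule genes, was lower, at -2.06 ± 0.31 (limma adjusted p = 0.00208), but was not called in WT arrays alone (-1.67, adjusted p = 0.0858). Gfi1, a repressor needed for granulocyte maturation, was lower, at -2.02 ± 0.19 (adjusted p = 0.000365). Of 16 partners, substrates and regulators of the granule proteins, 4 were higher and 2 lower. In EP2KO arrays alone 6 were higher and 5 lower, and in WT arrays alone 5 and 0. The endocytic receptor Lrp1, which clears proteases and lactoferrin, was higher by 2.74 ± 0.16 (adjusted p = 7.05e-05) and Cd36, a scavenger receptor for oxidised lipids, by 2.09 ± 0.17 (adjusted p = 0.00019). Among 6 neutrophil attractants and growth factors, 3 were lower and 0 higher (1 and 0 with normexp), with Il6 at -5.11 ± 0.40 (adjusted p = 0.000185) and Cxcl2 at -1.31 ± 0.26 (adjusted p = 0.00705).

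Of 12 other matrix metalloproteinases, 3 were higher and 1 lower on slide 2. Without EP2KO 1, and in EP2KO arrays alone, 1 was higher, and the call of Mmp13 was lost without EP2KO 1 (limma adjusted p = 0.0628). In WT arrays alone 4 were higher. Mmp12, macrophage elastase, was higher by 2.78 ± 0.77 (limma adjusted p = 0.0242, and 0.0509 without EP2KO 1). The calls of Mmp12 and Mmp13 were also lost in EP2KO arrays alone and without WT 1, WT 3 or WT 4 in turn. Mmp25, a membrane-bound enzyme of neutrophils, was lower, at -2.66 ± 0.46 (adjusted p = 0.00375). Of 9 other S100 genes, 1 was higher and 1 lower, S100a1 (0.73 ± 0.14) and S100a5 (-2.51 ± 0.19). S100a5 was thus the other S100 gene called lower beside S100a8 and S100a9.

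Markers of several cell types differed between the same slides, and their part in the results on the 10 genes was not tested. Of 12 tested neutrophil markers outside the 10, 8 were lower and 1 higher on slide 2, with a median of -2.14. With normexp 5 were lower and the median was -0.81, and in WT arrays alone 4 were lower. Their summed scaled signal was 63765 to 88741 on slide 1 and 50534 to 60299 on slide 2. Most of that sum was Csf3r, at 46320 to 72620 on slide 1 and 44690 to 54230 on slide 2. Csf3r was not called between slides (-0.17, limma adjusted p = 0.418), so the sum says little of the other markers. Ly6g and Olfm4 had no named probe, and Itgb2l and Fcnb did not pass the filter. Of 10 T, NK and B cell markers, 9 were lower, with sums of 30530 to 51526 on slide 1 and 3480 to 7612 on slide 2. Of 8 eosinophil and mast cell markers 7 were lower (21786 to 40227 against 4794 to 15450), and of 4 dendritic cell markers 4 were lower (6773 to 15896 against 1807 to 2997). Monocyte markers had 4 lower and 1 higher of 7, with sums that overlapped (106587 to 150028 against 90145 to 148141). Macrophage markers had 3 lower and 1 higher of 9, also with overlapping sums (343488 to 470532 against 256096 to 376655). Erythroid and platelet markers had 2 lower of 4, Hba-a1 and Alas2 (0 without EP2KO 1). Both calls were also lost in each genotype alone and without EP2KO 2, EP2KO 3, WT 3 or WT 4 in turn. Of 9 fibroblast and mesothelial markers 0 passed in either direction. These 9 had opposite signs in the genotypes: 9 of 9 were above 0 in WT arrays alone (median 1.98, 0 called). In EP2KO arrays alone 9 of 9 were below 0 (median -2.70, 3 called), and the interaction called 0 of the 9. Their sums ran from 18401 (WT 2) to 84328 (EP2KO 2) on slide 1 and from 3820 (EP2KO 4) to 126959 (WT 4) on slide 2. WT 2 was the lowest WT array, with WT 1 at 81630. The eosinophil peroxidase gene Epx was well above background on 0 of 8 arrays.

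EP2KO 1 was the highest array for 2 of the 9 tested members, Camp and Ltf, against 6.4% of all features, and also for Ngp, which was not tested. Of 20 other tested secondary and tertiary granule genes it was the highest array for 1, of 8 tested primary granule genes for 2, and of 10 tested T, NK and B cell markers for 3. Among the tested features with EP2KO 1 as their highest array, Camp had the largest gap to the next array, 3.16 on the log2 scale, followed by Fbxw13 with 1.44. Ngp was outside that ranking. Its gap was 2.76, the 101st largest among features taken without the filter, whichever array was highest. For Ltf the gap was small, 0.07, since EP2KO 3 came close. Itgb2l, Fcnb and Ms4a3, which are made by immature neutrophils and were named after their values were seen, were also highest on EP2KO 1, at 24.92, 15.15 and 34.17, though not kept by the filter. Other granule genes peaked elsewhere, such as Prtn3 and Prss57 on WT 2, Bpi on WT 3 and Elane on EP2KO 4. Fpr1 and Fpr2 were highest on WT 2, as were S100a8, S100a9 and Lcn2. For S100a8 and S100a9, EP2KO 1 came next with gaps of 0.13 and 0.16. Cebpe was at 8506 on EP2KO 1, between 9908 on WT 1 and 5125 on WT 2, so it did not stand out there. The part that cells of another type on EP2KO 1 had in this pattern was not tested.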

How the data were processed

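The authors' deposited scanner files, read with Feature Extraction 10.7.1.1 per the file headers (9.1 in the submitters' processing notes), hold 1 background-corrected intensity per spot. The deposited series table holds the same intensity values. Control spots (1377 of 44397) and outlier spots were dropped, and spots of a probe were averaged. Each array's 75th percentile was subtracted on the log2 scale. Probes were named through RefSeq transcripts (assembly GRCm38.p6, names and gene order only, since the array design states mm9). Probes well above background on all arrays of a genotype were kept, and the brightest stood for a gene. limma 3.58.1 in R 4.3.3 (lmFit, eBayes, two-sided, Benjamini-Hochberg over all 20740 features, threshold 0.05) compared genotypes and, with genotype in the model, slides. The code was tested on simulated data. Number of arrays limits precision. Equal replicate numbers deviated together (r across features 0.74, 0.12, 0.55 and 0.43), but each pair also shares a slide.

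The members and gene lists were chosen with earlier results of these data known. Named were all 10 members, Ptger2, Xist and Y-linked genes, from each list up to 4 genes with the largest called difference (or, with none called, the 2 with the smallest unadjusted genotype p), and the 2 nearest genes of each member. Not every gene so taken is described. Alternatives covered scaling, background, filter, probe choice, variance model, array weights, blocks and each array left out. The normexp background alternative used the median spot signal.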

Additional observations from a re-analysis of the deposited data

Results flagged for a closer look

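Camp in EP2KO was flagged because 1 of its 4 samples lay far from the others. EP2KO 1, at a scaled signal of 751.3, had a gap to the nearest of the other EP2KO arrays of 0.90 of the group's whole range on the log2 scale. Of 20 groups looked at (10 genes in 2 genotypes), 1 was flagged, and chance alone flags about 1 in 20. The second Camp probe was also highest on EP2KO 1 (380.1). Ngp, at 122.6 on EP2KO 1, did not reach the limit.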

How the results depend on the processing

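Between genotypes the count of called members was 0 in all 21 alternatives, the replicate block and the slide block included. The replicate block gave limma adjusted p of 0.641 for Fpr2 and 0.668 for Fpr1 and changed no call on the members. Between slides the count was 7 in 18 of 20 alternatives and 8 in the other 2 (without EP2KO 1, and WT arrays alone), and the interaction count was 0 in all 17. Genotype differences near 0 changed sign, and the cause was not tested. Mmp9 was at 0.03 with quantile normalization, 0.08 with each array's median, 0.16 with array weights and 0.53 on slide 1 alone. Lcn2 was at -0.16 on slide 1 alone and Camp at -0.04 on slide 2 alone. Leaving out 1 array in turn gave genotype differences from -1 to 0.08 for S100a8, -0.23 to 1.00 for Camp, -0.12 to 0.95 for Lcn2 and -0.60 to 0.54 for Mmp9. It gave interactions from -0.47 to 0.90 for S100a8, -1.49 to 0.72 for Ltf and -3.22 to 0.46 for Camp. Among called list genes, the slide difference of 2 changed sign. That of Zbtb46, a dendritic cell marker, was -1.07 in the main fit and 0.04 with normexp. That of Ms4a4c, the monocyte marker called higher, was 1.30 in the main fit and -1.01 with the mean of its probes. Over all features the slide comparison called 3537 with normexp, 2748 in WT arrays alone, 6677 with median scaling and 12241 with array weights, against 8967. Replicates 3 and 4 alone called 217 features between genotypes, against 2. The interaction called 3 of all features, 14 with the strictest filter, 11 with trend and robust, 5 with median scaling and 0 to 1442 (without WT 1) with an array left out. Median scaling moved the median genotype difference of all features from -0.03 to 0.12 and the median interaction from 0.14 to 0.45.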
